A study of Mus musculus with 4 samples.

Results

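Zfp110, Zfp810, Zfp606, Zfp942, Zfp369, Zfp68, Zfp120 and Zfp938 are 8 mouse genes for C2H2 zinc finger proteins whose bodies stayed under H3K36me3 peaks in kidney tubule cells with Setd2 knocked out. They are 8 of 21911 protein-coding genes and of 508 genes that encode at least 5 C2H2 finger motifs. They were chosen by their Setd2-KO values, as genes with many bases under Setd2-KO peaks or with some of the strongest peaks of that list. By bases under Setd2-KO peaks, Zfp110 (12304 bp), Zfp810 (10484 bp), Zfp606 (8915 bp), Zfp942 (8742 bp), Zfp369 (8545 bp) and Zfp68 (8436 bp) ranked 1, 2, 5, 6, 7 and 8 among all genes. Zfp938 (2644 bp) and Zfp120 (2468 bp) ranked only 85 and 97 by bases, but 5 and 2 by the fold enrichment of their strongest Setd2-KO peak, 7.96 and 9.12. The C2H2 genes with the most Setd2-KO bases outside the list were 2610008E11Rik (9386 bp), which ranked 4 and so above Zfp606, and Gm49345 (7132 bp) and Zfp445 (6641 bp), which ranked 10 and 11. By strength they were AI987944, which ranked 1 with a fold enrichment of 9.42, 2610008E11Rik, which ranked 4 with 8.35, and Zfp26, which ranked 6 with 7.88. Since these values chose the genes, the Setd2-KO coverage and strength below are a description with no test.

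H3K36me3 is trimethylation of lysine 36 on histone H3, laid down by SETD2 as it travels with elongating RNA polymerase II, so that the mark covers the bodies of transcribed genes and gains towards their ends. C2H2 zinc finger genes are a large family of DNA-binding repressors. In most of them an uninterrupted array of fingers is encoded by the last coding exon, while a KRAB domain, where there is one, comes from short exons upstream and recruits TRIM28 with the H3K9 methyltransferase SETDB1. Bodies of this gene family are known for carrying H3K9me3 and H3K36me3 at once over the finger exons. Zfp110 and Zfp369 encode the neurotrophin receptor interacting factors NRIF1 and NRIF2.

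Chromatin immunoprecipitation and sequencing (ChIP-seq) of H3K36me3 was done on cells isolated from the kidney cortex of C57BL/6 mice, which the labels call renal primary tubular epithelial cells (PTECs). Control PTECs were SETD2fl/fl without Cre, and Setd2-KO PTECs were SETD2fl/fl KspCre/+, so floxed Setd2 alleles are common to both. Cre under the Ksp promoter is active in kidney tubule epithelium, and any cell of the culture without it would keep SETD2. Each genotype had 1 ChIP library called against 1 input library. The labels give no age, and the study's methods give an age for the mice of its phenotyping and multi-omics work without naming those of the ChIP-seq. In 1 place those methods describe the ChIP material as cysts and tumor tissue of mice that overexpress MYC, whereas the labels, followed here, name PTECs. With no replicates there is no SD, no p-value and no way to separate the knockout from the library, and every difference below is between 2 libraries.

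The control list held 12242 peaks and the Setd2-KO list 2732, with 22.3% as many bases in all. Of the control peaks 12.9% touched a Setd2-KO peak, and 61.3% of the Setd2-KO peaks touched a control peak. The genome background pileup recovered from the lists, the only sign of depth used, was 6.58 in the control and 6.54 in the Setd2-KO library. Setd2 itself had 5 control peaks over 3077 bp and no Setd2-KO peak. Of 12 proximal tubule marker genes 9 carried a control and 5 a Setd2-KO peak, whereas of 22 markers of other kidney cell types only Kdr carried a control peak and none a Setd2-KO peak. For comparison, 19.5% of all protein-coding genes carried a control and 7.37% a Setd2-KO peak. At the latter share few of 22 genes would carry one.

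A stretch of 30 bases from the last coding exon of each gene shows the coding repeat that the mark covered in these genes. Each begins at the last histidine codon of a finger, and the linker to the next finger, whose classical form is the peptide TGEKP, is in capitals. Among the finger boundaries of a gene, one with a matching linker was taken where there was one, then one under a Setd2-KO peak, then the nearest to a Setd2-KO summit, so their place is set by that choice. The stretches were read 5' to 3' on the coding strand of the GRCm38 genome.
Zfp110, chr7:12849722-12849751, plus strand: catACTGGAGCTAAGCCCtaccactgtgag
Zfp369, chr13:65297211-65297240, plus strand: cacACAGGAGAGCGGCCTtacatgtgtatg
Zfp606, chr7:12493394-12493423, plus strand: catACAGGAGAAAAACCTtatgtatgtaat
Zfp810, chr9:22278636-22278665, minus strand: catACGGGCGAGAAGCCTtatcaatgtaaa
Zfp942, chr17:21928585-21928614, minus strand: catACAGGAGAGAAACCCtataaatgtagt
Zfp68, chr5:138606428-138606457, minus strand: catACGGGTGAGAAACCTtatgaatgtaag
Zfp120, chr2:150117654-150117683, minus strand: catACTGGAGAGAAACCCtatgaatgtaag
Zfp938, chr10:82225807-82225836, minus strand: cacACTGGTGAGAAACCCtatgaatgcagt
The linkers of Zfp110 and Zfp369 do not match ACNGGNGANAANCCN, the coding sequence of TGEKP, whereas the other 6 do. Among those 6, 19 of the 30 positions were identical. Most of these, the fixed letters of the motif and of the histidine codon, were set by how the stretches were chosen. On the coding strand this motif occurred in the last coding exon of 6 of the 8 genes, of 73.8% of the 508 C2H2 genes and of 1.91% of 21826 protein-coding genes with a transcript model. Among 1047 other genes with a last coding exon of the same length range, 1042 to 1979 bp, the share was 0.669%. On the opposite strand it occurred in none of the 8 exons and in 0.0229% of all. The stretch from Zfp110 lay under a Setd2-KO peak and outside the control peaks, that from Zfp369 lay under a control peak only, and the other 6 lay under peaks of both lists.

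The 8 proteins hold 72 C2H2 motifs, each encoded in the last coding exon, and that exon makes up from 59.8% (Zfp369) to 89.2% (Zfp942) of the coding sequence. Zfp606 has 13 motifs, Zfp942 has 11, Zfp810 and Zfp938 have 10 each, Zfp68 and Zfp120 have 9 each, and Zfp110 and Zfp369 have 5 each. Of the 72 motifs, 69 (95.8%) began under a control peak and 66 (91.7%) under a Setd2-KO peak. Outside Zfp110 and Zfp369, each motif began under peaks of both lists. In Zfp110, 2 of 5 motifs began under control and 4 of 5 under Setd2-KO peaks, whereas in Zfp369 these were 5 of 5 and 0 of 5. Motifs that lay wholly under peaks numbered 1 and 3 of 5 in Zfp110, 4 and 0 of 5 in Zfp369, and 67 and 65 of 72 in all. In these genes the fingers start late in the exon, at 1091 bp in Zfp110 and 1082 bp in Zfp369, and a peak edge or a gap between peaks fell before or among them.

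Zfp110 and Zfp369 are also the closest relatives among the 8. Their proteins were identical at 85.7% of 825 aligned residues, against 30.4% to 58.5% for the other 27 pairs. Their last coding exons were identical at 91.2% of 1517 aligned bases, with a longest identical run of 73 bp, just under the read length of 75 bases. The opposite finger counts of this pair are uncertain to that extent, and the part of misplaced reads in them was not tested. The share of 75-base words that occur once in the genome was 93.9% in the last coding exon of Zfp110 and 100% in that of each of the other 7 genes. The repeated words of Zfp110 thus match places other than the last coding exon of Zfp369. Over the body of Zfp110 the share was 99.9% under and 97.1% outside the Setd2-KO peaks. Repeated words thus lay largely outside those peaks, and their part in the gap between Setd2-KO peaks among the fingers was not tested.

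**Figure D1:**
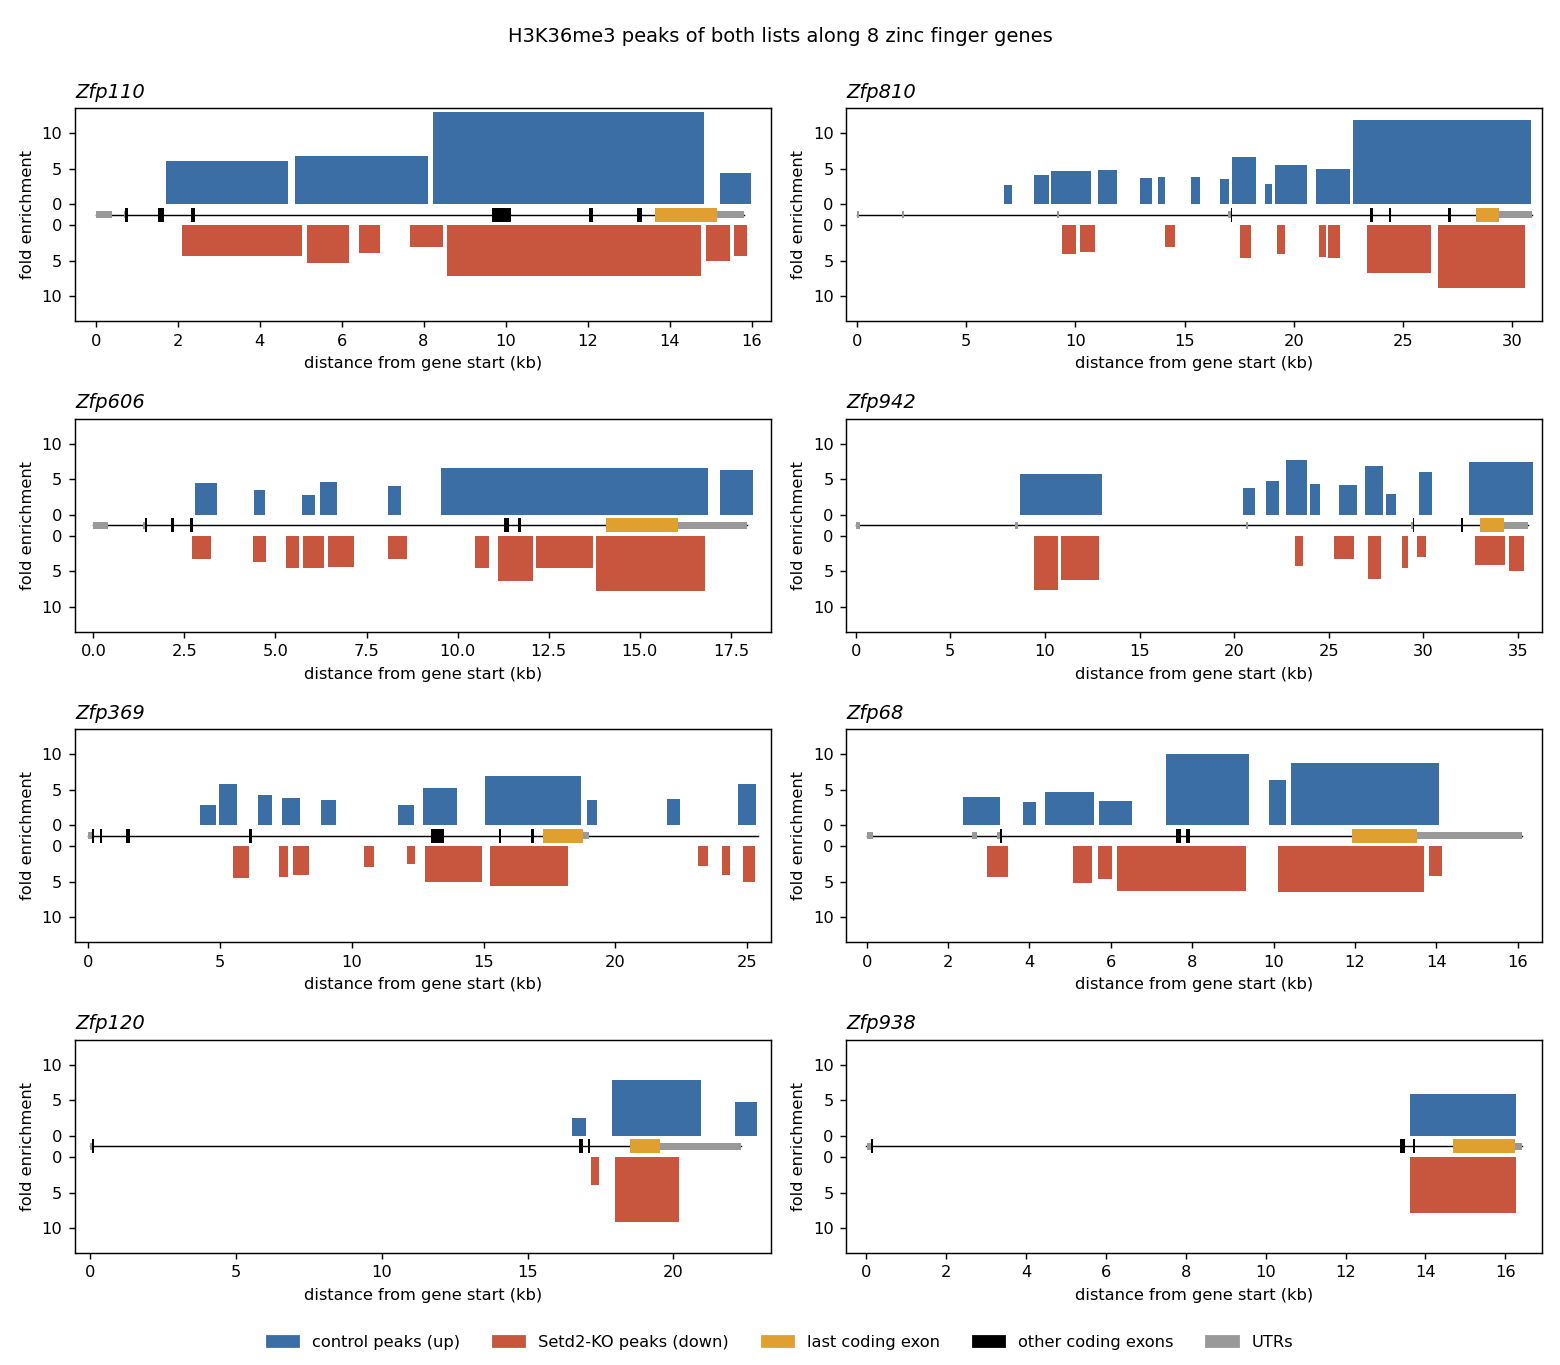
H3K36me3 peaks along the 8 genes, with distance from the gene start in kb on the x axis and fold enrichment of each peak as the height of its bar, control upwards in blue and Setd2-KO downwards in red. Boxes on the midline are last coding exons (orange), other coding exons (black) and UTRs (grey); in each gene a peak of both lists spans the orange box or most of it, and in Zfp120 and Zfp938 few or no peaks lie elsewhere.

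Each of the 8 genes carried peaks in both lists, as 6.73% of all protein-coding genes did, a share to which the choice of the genes leaves no contrast. Together they held 56 control and 54 Setd2-KO peaks, over 81194 bp (45.0%) and 62538 bp (34.7%) of 180418 bp of gene body. The bases under both lists came to 54792 bp, which is 67.5% of the control and 87.6% of the Setd2-KO bases. Counting only peaks of at least 5-fold enrichment, the bases were 60049 bp in the control and 38224 bp in the Setd2-KO list, and their ratio went from 0.770 to 0.637. Setd2-KO bases were fewer in 7 of the 8 genes and equal in Zfp938, beside fewer in 91.8% of genes marked in both lists. Of the 56 control peaks 36 touched a Setd2-KO peak, and 48 of the 54 Setd2-KO peaks touched a control peak.

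Zfp110 (chr7:12834761-12850577, plus strand) had the widest coverage in the knockout. Its 4 control peaks covered 13417 bp, 84.8% of the body, and its 7 Setd2-KO peaks 12304 bp, 77.8%. Control peaks ran almost without a break from 1712 bp past the gene start to its end, with gaps of 142 to 396 bp. The Setd2-KO list began at 2118 bp and covered nearly the same stretch in more pieces, 86.9% of the control bases being in both. The summit of the widest peak lay in an intron in control PTECs and in an upstream coding exon in Setd2-KO PTECs, 524 bp apart.

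Zfp810 (chr9:22276748-22307648, minus strand) lost the most bases. Its 13 control peaks covered 18076 bp (58.5%) and its 9 Setd2-KO peaks 10484 bp (33.9%), with 54.4% of the control bases kept. The peak over the finger exon measured 8186 bp in control PTECs but 4018 bp after the knockout. In control PTECs it reached 5658 bp upstream of that exon, and in Setd2-KO PTECs 1762 bp. Of its 13 control peaks only 6 touched a Setd2-KO peak, while each of its 9 Setd2-KO peaks touched a control peak.

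Zfp606 (chr7:12478293-12496235, plus strand) had 7 control peaks over 10143 bp (56.5%) and 10 Setd2-KO peaks over 8915 bp (49.7%). A single control peak of 7320 bp ran from 4520 bp upstream of the finger exon to 821 bp past its coding end. The Setd2-KO list covered the same stretch with separate peaks, the one over the exon starting 262 bp upstream and ending 746 bp past the coding end. A further control peak at the 3' end, of 912 bp and fold enrichment 6.33, had no Setd2-KO counterpart.

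Zfp942 (chr17:21926960-21962464, minus strand) carried the mark in separate blocks, 6 in each list when peaks within 500 bp were joined. Its 10 control peaks covered 13507 bp (38.0%) and its 9 Setd2-KO peaks 8742 bp (24.6%). One block lay in intron 2, where a control peak of 4340 bp had a pileup of 65 and Setd2-KO peaks of 1305 and 1979 bp had pileups of 57 and 48. Another lay over the finger exon. There the control peak had a pileup of 58 and a fold enrichment of 7.43, and the Setd2-KO peak 45 and 4.10. The strongest Setd2-KO peak, with a fold enrichment of 7.61, was therefore in intron 2 and not over the fingers. The strongest control peak lay in intron 3, with a fold enrichment of 7.65 and a pileup of 57. The Setd2-KO peak that overlapped it had a pileup of 31, with the summits 1 bp apart. Other overlapping peaks in intron 3 had pileups of 53 (control) and 45 (Setd2-KO), and of 39 and 42.

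Zfp369 (chr13:65278814-65304221, plus strand) had the least agreement between the lists. Its 11 control peaks covered 10264 bp (40.4%) and its 10 Setd2-KO peaks 8545 bp (33.6%), yet only 54.6% of the control and 65.6% of the Setd2-KO bases lay under both lists. Over the finger exon the control peak ended 92 bp before the coding end and the Setd2-KO peak 569 bp before it. The annotated gene runs 6426 bp past the end of the transcript used, and 1525 bp of it lay under control and 1150 bp under Setd2-KO peaks. Exons of other transcripts in that stretch total 404 bp, of which control peaks covered 326 bp and Setd2-KO peaks 291 bp.

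Zfp68 (chr5:138603652-138619761, minus strand) had 9392 bp (58.3%) under 7 control and 8436 bp (52.4%) under 6 Setd2-KO peaks. Its highest control peak, with a pileup of 79 and a fold enrichment of 10.0, lay in intron 5 beside the processed pseudogene Gm15497, whose 551 bp were covered in both lists. The overlapping Setd2-KO peak had a pileup of 56 and a fold enrichment of 6.32. Over the finger exon the pileups were 74 in control and 61 in Setd2-KO PTECs, with fold enrichments of 8.78 and 6.36.

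Zfp120 (chr2:150114406-150136708, minus strand) and Zfp938 (chr10:82224850-82241280, minus strand) carried the mark near their 3' ends alone. In Zfp120, 3 control peaks covered 3751 bp (16.8%) and 2 Setd2-KO peaks 2468 bp (11.1%), none of them closer than 16508 bp to the gene start. In Zfp938 each list had 1 peak of 2644 bp, shifted by 4 bp, so that 99.8% of either was shared. The summit pileup of Zfp120 was 68 in both lists, while that of Zfp938 was 45 in the control and 59 in the Setd2-KO list. The local background at these summits was 7.81 and 6.57 in Zfp120, so its higher Setd2-KO fold enrichment (9.12 against 7.84) came with equal pileups.

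**Figure D2:**
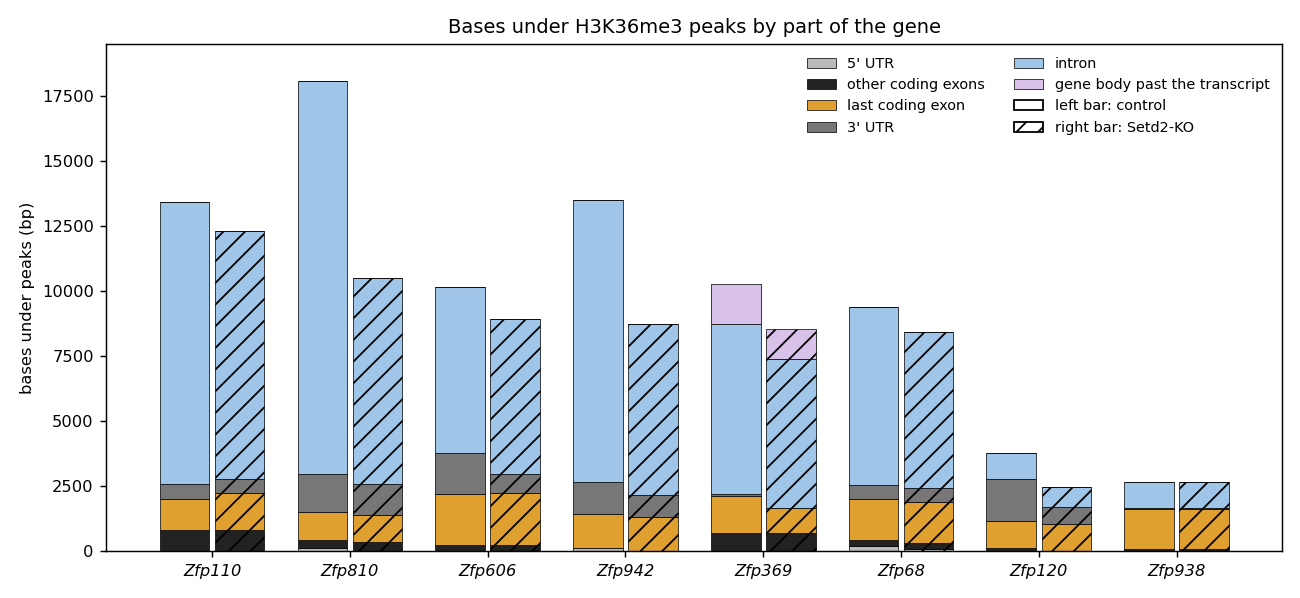
Bases under H3K36me3 peaks (y axis, bp) in each gene (x axis), stacked by part of the gene, with control as the left bar and Setd2-KO as the right, hatched bar. Introns make up 72.1% of the control and 69.6% of the Setd2-KO bases over the 8 genes, while the orange last coding exon is about as tall in both bars except in Zfp110 and Zfp369.

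By part of the gene, the last coding exon was the most completely marked in both libraries. Over the 8 genes 11127 of 11544 bp (96.4%) of its coding bases lay under control and 10863 bp (94.1%) under Setd2-KO peaks. Of the control bases in that exon, 95.1% were also under a Setd2-KO peak. The exon was wholly covered in 6 of the 8 genes in each list, beside 8.61% of genes with a control peak and 6.23% of genes with a Setd2-KO peak. The exceptions were Zfp110, with 78.7% under control and 92.7% under Setd2-KO peaks, and Zfp369, with 93.9% and 62.5%. Among the 179 other C2H2 genes with a Setd2-KO peak, Setd2-KO peaks wholly covered the last coding exon in 36 (20.1%). The choice of the 8 by Setd2-KO values limits this comparison.

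The 3' UTR and introns kept less of the control mark. Over the 8 genes the 3' UTR had 7114 of 11021 bp (64.5%) under control and 4537 bp (41.2%) under Setd2-KO peaks, with 61.7% of the control bases kept. Introns had 58558 of 145300 bp (40.3%) under control and 43546 bp (29.97%) under Setd2-KO peaks, with 63.1% kept. The other coding exons, 3573 bp in all, kept 94.8%, at 68.6% and 66.2% covered. The 5' UTRs were little marked, with 418 of 2524 bp in control PTECs (in Zfp810, Zfp942 and Zfp68) and 75 bp after the knockout (in Zfp68). Coding exons thus kept a larger share of their control bases than UTRs and introns did.

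In the 3' UTR the genes varied. The control peaks covered 1608 bp and the Setd2-KO peaks 634 bp of the 2753 bp in Zfp120. In the same order, Zfp606 had 1568 and 746 bp of 1900 bp. Zfp810 had 1475 and 1203 bp of 1480 bp, and Zfp942 had 1229 and 837 bp of 1229 bp. Values were close to each other in Zfp110 (584 and 573 bp of 655 bp), Zfp68 (553 and 511 bp of 2590 bp) and Zfp938 (29 and 33 bp of 198 bp). In Zfp369 the control peaks covered 68 of 216 bp and the Setd2-KO peaks none. Past its stop codon the 3' UTR of Zfp942 holds the coding letters of 2 further finger motifs, of which 1 began under peaks of both lists and 1 under a control peak only.

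Introns separated Zfp120 and Zfp938 from the rest. This follows in part from the choice, since these 2 ranked high by peak strength and not by covered bases. In these 2 genes 5.36% and 7.01% of the intron bases lay under control and 4.36% and 6.98% under Setd2-KO peaks. In the other 6 the control share ran from 33.7% (Zfp942) to 88.6% (Zfp110) and the Setd2-KO share from 20.5% to 77.9%. The difference was widest in Zfp810, from 54.6% to 28.6%. The share of the last coding exon exceeded that of the introns in 7 of 8 genes in control PTECs, Zfp110 being the exception, and in 8 of 8 in Setd2-KO PTECs. Among other C2H2 genes with a peak of the list, drawn from those with a Setd2-KO peak, it did so in 88.2% and 86.6%, and among other protein-coding genes in 22.4% and 11.97%.

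**Figure D3:**
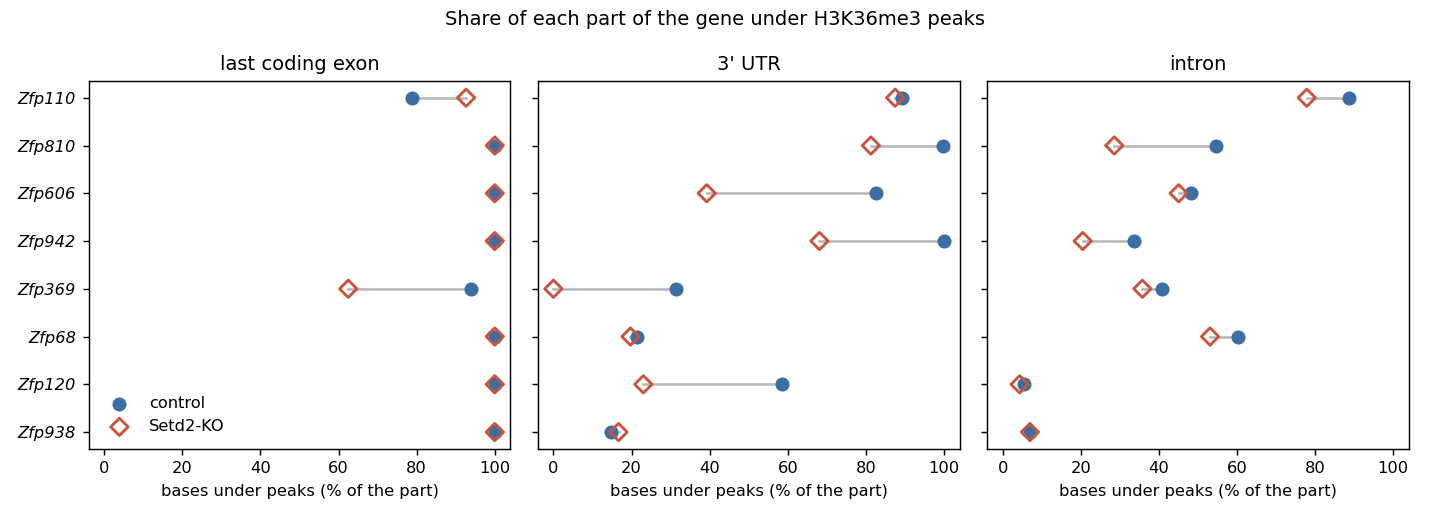
Share of the last coding exon, 3' UTR and introns under H3K36me3 peaks (x axes, percent of the part's bases) for each gene (y axis), with control as filled blue circles and Setd2-KO as open red diamonds. Both symbols sit at 100% in the last coding exon of 6 genes, while Setd2-KO symbols lie left of control for introns in each gene and for the 3' UTR in each gene but Zfp938.

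The strength of the mark was compared at the highest peak of each gene. MACS2 fold enrichment is the pileup of fragments at the summit over the local background, each plus 1. Intervals given here are exact Poisson 95% limits on the pileup and exact limits on the ratio of 2 pileups. They cover counting error only, take no account of the summit being a maximum, and say nothing of the genotype.

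Zfp110 held the peak with the highest fold enrichment of the control list, 12.9 with a pileup of 97 (78.7 to 118). In Setd2-KO PTECs it was 7.18 with a pileup of 69 (53.7 to 87.3), and the pileup ratio was 0.711 (0.515 to 0.979). This was the only one of the 8 ratios whose interval excluded 1. The strongest peak of Zfp810 ranked 4 in the control list, with a fold enrichment of 11.9 and a pileup of 92, and 3 in the Setd2-KO list, with 8.80 and 82. Its ratio was 0.891 (0.654 to 1.21).

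Lower Setd2-KO pileups with intervals that included 1 were seen in Zfp68 (79 and 61, ratio 0.772, 0.544 to 1.09), Zfp606 (69 and 57, ratio 0.826, 0.571 to 1.19) and Zfp369 (52 and 45, ratio 0.865, 0.567 to 1.32). Pileups were equal in Zfp120 (68, ratio 1.00, 0.704 to 1.42) and in Zfp942 (57, ratio 1.00, 0.680 to 1.47), where the 2 summits lay 12972 bp apart. Zfp938 had the higher pileup in Setd2-KO PTECs (45 and 59, ratio 1.31, 0.875 to 1.98). In Zfp68 the summits compared also lay in different peaks, 5263 bp apart.

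The fold enrichment was higher in Setd2-KO PTECs in 3 of the 8 genes, Zfp606 (6.64 and 7.69), Zfp120 (7.84 and 9.12) and Zfp938 (5.90 and 7.96), beside 27.2% of genes marked in both lists. In Zfp606 the pileup was the lower one in Setd2-KO PTECs and the local background was 9.54 and 6.54, so pileup and fold enrichment differed in direction. The local background of Zfp110 was 6.58 and 8.76, and that of Zfp938 was 6.79 and 6.54. The fold enrichment was 7.65 and 7.61 in Zfp942, 6.99 and 5.54 in Zfp369, and 10.0 and 6.36 in Zfp68. The strongest summit lay in the last coding exon in 3 of 8 genes in control PTECs (Zfp810, Zfp369, Zfp120), beside 8.35% of genes with a control peak. In Setd2-KO PTECs it lay there in 5 of 8 (Zfp810, Zfp606, Zfp68, Zfp120, Zfp938), beside 13.2% of genes with a Setd2-KO peak. The peak holding it touched that exon in 6 of 8 genes in control (background 14.2%) and 7 of 8 in Setd2-KO PTECs (background 18.3%). The strongest Setd2-KO peak also touched it in 144 of the 179 other C2H2 genes with a Setd2-KO peak (80.4%), so this was not particular to the 8.

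**Figure D4:**
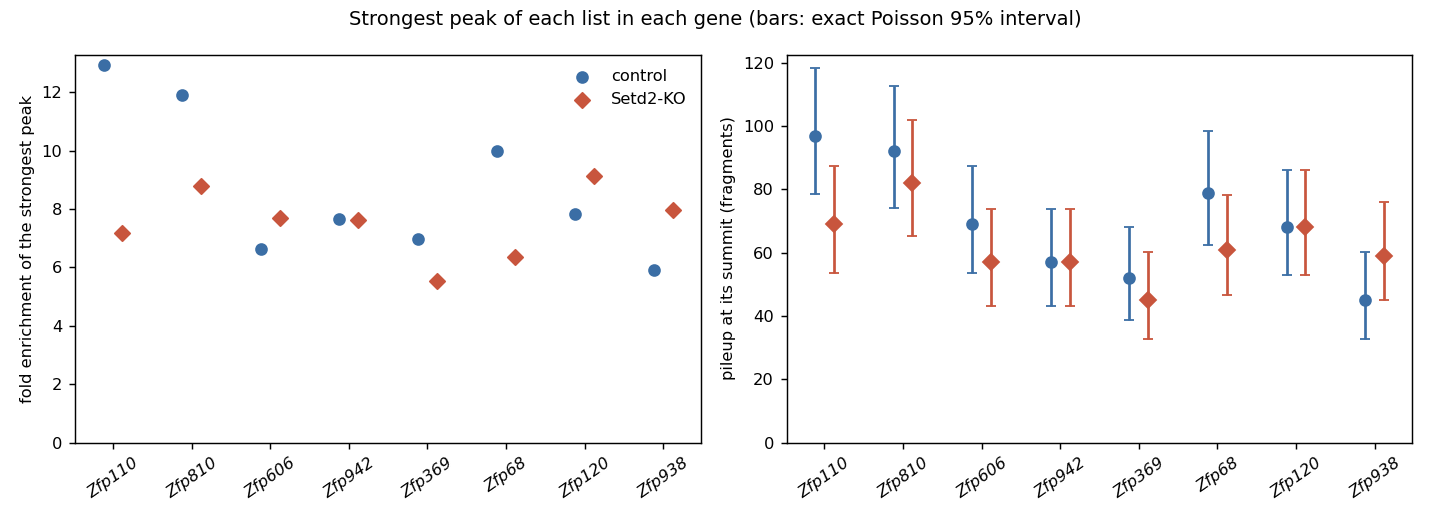
Fold enrichment (left) and summit pileup in fragments (right) of the strongest peak of each gene, control as blue circles and Setd2-KO as red diamonds, with exact Poisson 95% intervals on the pileup. Control and Setd2-KO pileup intervals overlap in each gene, and the control symbol is clearly the higher in Zfp110 (97 and 69).

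Over all their peaks, the 8 genes carried longer peaks than the lists at large, which follows in part from choosing them by covered bases or peak strength. Their control peaks had a median length of 715 bp and their Setd2-KO peaks of 580 bp, against 413 and 380 bp over all peaks. Peaks of at least 1 kb made up 33.9% and 31.5% of those in the 8 genes, against 6.20% and 7.32% of all. Summits in the last coding exon had the highest median fold enrichment, 7.84 over 5 control peaks (6.99 to 11.9) and 7.82 over 6 Setd2-KO peaks (4.10 to 9.12). Intron summits, 43 in control and 37 in Setd2-KO PTECs, had medians of 4.35 and 4.37. They ranged from 2.43 to 12.9 and from 2.52 to 7.61, so the highest control summit of all was in an intron.

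Where a control peak of the 8 genes touched a Setd2-KO peak, the median ratio of their fold enrichments was 0.865 over 36 control peaks, and the Setd2-KO value was the higher in 12. In other C2H2 genes the median was 0.955 over 281 peaks, and over the remaining 1266 peaks it was 0.951. At control fold enrichments of at least 6 the medians were 0.724 (15 peaks), 0.828 (63 peaks) and 0.654 (80 peaks), so the position of the 8 genes in this order changed with the strength of the control peak. The same control library chose those strong peaks and gave their values, and no test was made of the difference.

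**Figure D5:**
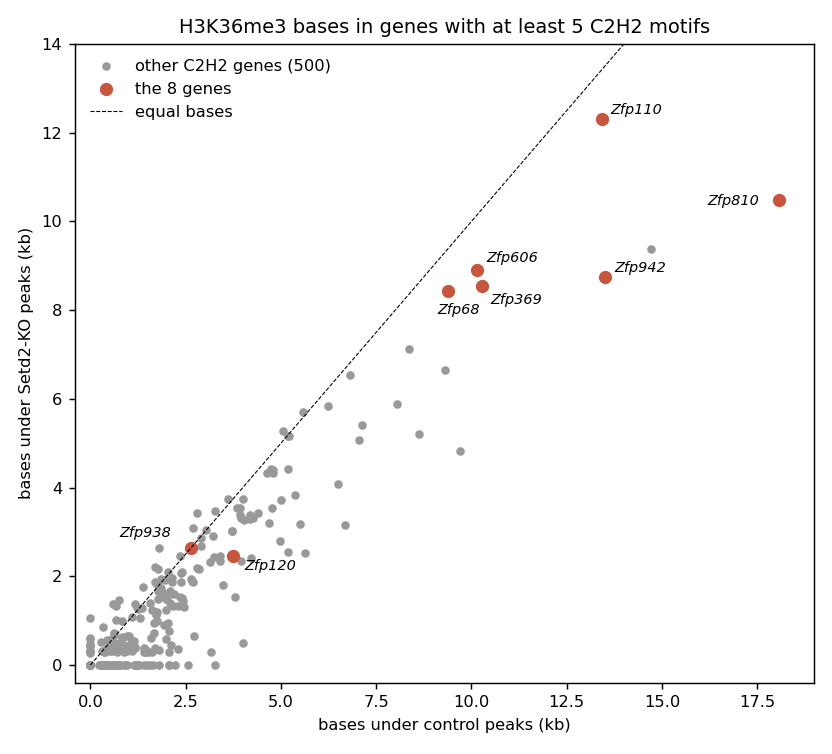
Bases under control peaks (x axis, kb) and under Setd2-KO peaks (y axis, kb) in each of the 508 genes with at least 5 C2H2 motifs, the 8 genes in red with names and the other 500 in grey. The dashed line marks equal bases; 6 of the 8 genes lie at the upper right, and Zfp120 and Zfp938 lie within the cloud of other genes.

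Of the 508 C2H2 genes, 45.3% were touched by the control and 36.8% by the Setd2-KO list, whereas the shares over all protein-coding genes were 19.5% and 7.37%. The other 179 C2H2 genes with a Setd2-KO peak had a median of 1989 bp under control and 1454 bp under Setd2-KO peaks. Their median share of control bases kept was 61.0% and that of the 8 genes 67.3%, whereas the 1288 other protein-coding genes marked in both lists kept a median of 9.89%. The last coding exon was covered to a median of 76.5% and 61.3% in the other C2H2 genes, against 100% and 100% in the 8. Introns were covered to 4.02% and 2.30%, against 44.5% and 32.2%, and 3' UTRs to a median of 0 in both lists, against 70.5% and 31.1%. The strongest Setd2-KO summit lay in the last coding exon of 73.2% of the other C2H2 genes, and of 62.5% of the 8. Coverage of the last exon was thus common to C2H2 genes with the mark, and 6 of the 8 genes added wide intron coverage, which follows in part from choosing genes by covered bases.

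By the ratio of bases under both lists to bases under either, Zfp938 (0.997) and Zfp110 (0.829) were the most alike between libraries and Zfp369 (0.424) the least. Of the 74 genes with at least 3000 bp under Setd2-KO peaks, those most alike outside the 8 were Zfp729b (0.888), Zfp952 (0.857) and Zfp26 (0.855).

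No protein-coding gene overlapped any of the 8. Within 500 kb, 17 of the 18 protein-coding genes around Zfp942 were C2H2 genes and 11 of these carried a Setd2-KO peak, whereas none of the 10 around Zfp369 was a C2H2 gene. The other 6 genes had 4 to 7 C2H2 neighbours each, of which 1 to 3 carried a Setd2-KO peak. Over all 508 C2H2 genes the share with such a peak was 36.8%. Zfp110 and Zfp606 lie within 500 kb of each other, so each falls in the window of the other, and both were chosen for their Setd2-KO peaks. The neighbours that were not C2H2 genes numbered from 1 (Zfp942) to 24 (Zfp810) per gene. Of these, 2 of the 8 near Zfp120 carried a Setd2-KO peak and none near the other genes, beside 7.37% of all protein-coding genes. Zfp943, which starts 87 bp from Zfp942, had 3216 bp under control and 2915 bp under Setd2-KO peaks. Anln, next to Zfp810, and 2900092C05Rik, next to Zfp606, had no peak in either list. The C2H2 genes Zfp599, next to Zfp810, Zfp128, next to Zfp110, and A430033K04Rik, next to Zfp68, had none either. Of the other nearest C2H2 genes, Zfp329, Zfp551, Zfp995 and AU041133 had peaks in both lists.

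Of 22 genes for proteins that work with KRAB zinc finger proteins or in heterochromatin, 14 carried a control and 5 a Setd2-KO peak. Over all protein-coding genes the shares were 19.5% and 7.37%. The 5 genes were among the 14, beside 1475 of the 4278 protein-coding genes with a control peak that had peaks in both lists. A control peak without a Setd2-KO peak was thus common over all genes and not particular to this list. Chd4, a remodeller of the NuRD complex, had 8764 bp under control and 3659 bp under Setd2-KO peaks, and Atf7ip, the partner of SETDB1, 6992 and 3900 bp. Chd3, a further NuRD remodeller, went from 3469 bp and Setdb1 from 2725 bp to none. Trim28, the co-repressor that KRAB domains recruit, went from 2327 bp to none. Morc3, Smarcad1 and Fam208a had the other Setd2-KO peaks, over 661, 464 and 322 bp.

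Sequence properties that could touch the placing of reads were read from the genome. Of 75-base words in the 8 gene bodies 97.7% occurred once in GRCm38, from 94.5% to 100% by gene. The share was 99.1% under control peaks, 99.5% under Setd2-KO peaks and 96.7% outside the Setd2-KO peaks. Soft-masked repeats made up 24.1% under and 41.1% outside the Setd2-KO peaks, and 24.9% and 41.3% within introns, while the GC content was 40.8% and 40.7%. The part of repeats in where the peaks of these genes lay was not tested.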

How the data were processed

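H3K36me3 ChIP and input libraries of control and Setd2-KO PTECs were compared, with 1 of each per genotype. The submitters' processing notes name cutadapt 1.9.1 and Trimmomatic 0.35 for trimming, Bowtie2 2.2.6 for mapping to GRCm38, and MACS2 2.1.1 for calling peaks, done by the authors for each ChIP library against its input. The stated p-value threshold was 0.01, but the lowest deposited -log10 q was 3.09 in the control and 3.08 in the Setd2-KO list. A reporting summary names a false discovery rate and 5-fold enrichment, below which 94.3% of control and 92.5% of Setd2-KO peaks lie. Which filter the authors applied is not clear, and 5-fold enrichment was among the alternatives. The deposited pileup is the signal of extended fragments over the summit. The deposited fold enrichment is the ratio of pileup plus 1 to local background plus 1. The deposited -log10 p and -log10 q values are the authors' per-peak scores against input, and were used only as filters. Read depth was not taken from the files, and the recovered local background stood in for it.

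Genes and parts came from GENCODE M21 (GRCm38), with the coding transcript of longest coding sequence per gene (the stop codon counts as 3' UTR). A peak counted for a gene when at least 1 bp overlapped. C2H2 motifs were found in translated coding sequence, and genes with at least 5 made up the C2H2 set. Unique words were counted over the GRCm38 primary assembly. Python 3.11.15, numpy 2.4.6, pandas 2.3.3, scipy 1.17.1, Biopython 1.88 and numba 0.67.0 were used, and word counts and intervals were tested on simulated data. The 8 genes and all lists were chosen with earlier results of these data known. Named genes are the 8, those just outside by Setd2-KO bases or fold enrichment, those most alike between libraries, neighbours and overlapping genes, and co-factor genes with the most control bases. Morc3, Smarcad1, Fam208a, Kdr and Setd2 were added after their values were seen. Alternatives were stricter peak thresholds, joined peaks, other overlap rules and another transcript model.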

Additional observations from a re-analysis of the deposited data

How the results depend on the processing

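The covered bases, kept share, last-exon shares and summit counts of the 8 genes were recomputed under 7 alternatives, each result under those that apply to it, 40 values in all. Of these 37 stayed within their limits and none reversed. With peaks of fold enrichment of at least 5 alone, the control bases were 60049 bp, the Setd2-KO bases 38224 bp, their ratio 0.637, and the share of the last coding exon under Setd2-KO peaks was 82.8%. With the transcript of longest span that share was 98.9%, because Zfp369 then has another last coding exon. Setd2-KO bases were fewer than control in 5 genes at a fold enrichment of at least 4, where Zfp369 (6897 bp in control, 7186 bp in Setd2-KO PTECs) and Zfp68 (8247 and 8436 bp) went the other way. At 5 or more they were fewer in 6, with Zfp68 (6139 and 7262 bp) the other way and Zfp938 equal in both. No paired analysis was possible because each genotype had 1 ChIP library, and no replicate could be left out.

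Low pileups limit the rest. Peaks in the 8 genes had 25 to 97 fragments at the summit in control and 27 to 82 in Setd2-KO PTECs, so a base outside a peak is not shown to lack the mark.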
